A study of Mus musculus with 25 samples.

Results

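The respiratory chain genes examined here are the 13 protein genes carried by mouse mitochondrial DNA and the nuclear genes for subunits of complexes I to V, with the assembly factors that share their symbols. They were chosen by symbol: mt-Nd, mt-Co, mt-Atp and mt-Cytb for the mitochondrial genes, and symbols starting with Nduf, Uqcr, Cox4 to Cox8 or Atp5 together with the Sdh genes for the nuclear ones. The deposited table of 37117 genes held 115 of them, 13 mitochondrial and 102 nuclear. Of these, 101 reached 1 CPM, the count relative to the library total on the customary scale, in at least 3 of the 25 libraries, 8 mitochondrial and 93 nuclear, and all 101 were tested. The 93 nuclear genes comprised 38 for complex I, 4 for complex II, 8 for complex III, 14 for complex IV, 17 for complex V and 12 assembly factors. The 38 include the processed pseudogenes Ndufs6b and Ndufb4c. Just inside the threshold, by the third-highest CPM of a gene, stood Ndufs6b at 1.23 and Atp5g2 at 1.63, and just outside it Cox6c2 at 0.582.

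The respiratory chain of the inner mitochondrial membrane passes electrons from NADH and succinate to oxygen through complexes I to IV and pumps protons, which drive the ATP synthase, complex V. Complexes I, III, IV and V combine subunits from both genomes, whereas complex II is wholly nuclear. Mitochondrial genes are transcribed as long RNAs from each DNA strand and then cut apart, while each nuclear subunit has its own promoter and is imported after translation. Hepatocytes are rich in mitochondria, which also serve their urea synthesis, fatty acid oxidation and gluconeogenesis.

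RNA came from mouse liver cells sorted as hepatocytes, in 7 groups. ApoYap mice carry the ApoE-rtTA and TRE-hYAP transgenes, so that doxycycline induces human YAP, the growth-promoting coactivator at the end of the Hippo pathway. They were sampled untreated (ApoYap ctrl, n = 4) and after 1 week on drinking water with 0.2 mg/ml doxycycline and 2.5% sucrose (ApoYap Dox, n = 3). Mice homozygous for floxed Lats1 and Lats2, the kinases that inhibit YAP, were sampled untreated (Lats1/2 flox ctrl, n = 4) and 1 week after AAV8.TBG Cre, a viral vector in which the hepatocyte promoter TBG drives the recombinase Cre (Lats1/2 KO, n = 3). C57BL/6 mice were sampled untreated (BL/6 ctrl, n = 4), after 1 week on the same doxycycline water (BL/6 Dox, n = 4) and 24 hours after the same virus (BL/6 AAV-Cre, n = 3). Neither age nor sex is given. The labels do not say that replicates were separate animals, so p-values measure the spread between these libraries, which may be technical.

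Totals ran from 8107539 to 16515330 counts per library. Lats1 stood at 2.97 to 5.10 CPM in Lats1/2 KO against 12.3 to 14.9 CPM in the untreated floxed mice, a log2 fold change of −1.67 (edgeR adjusted p = 4.1e-06). The Lats2 difference was −0.13 (edgeR adjusted p = 0.65), and whether its 3′ tag lies in the deleted part is not given. All 12 hepatocyte markers were counted in every group. Markers of other liver cells moved with both treatments. The summed 21 macrophage markers, none of them at 0 in a group, ranged from 117 to 266 CPM in ApoYap ctrl and from 15181 to 26926 CPM in ApoYap Dox, and from 112 to 358 CPM in Lats1/2 flox ctrl and 1101 to 2958 CPM in Lats1/2 KO. The 21 sinusoidal endothelial markers ranged from 111 to 290 and 1601 to 3080 CPM in the first pair, and from 114 to 335 and 740 to 1968 CPM in the second. Hepatocyte markers were lower for 12 of 12 genes under Yap induction (median log2 fold change −1.69) and 10 of 12 in the knockout (−0.81). Of all genes tested 32.0% and 17.4% were lower. With total counts alone the marker calls were 9 lower and 1 higher (−0.78), and 6 lower and 1 higher (−0.35). By that scaling 12.6% of genes tested fell and 66.4% rose under induction, and 4.41% and 44.6% in the knockout. Their sum ranged from 105021 to 123484 CPM in ApoYap ctrl and 72709 to 99027 CPM in ApoYap Dox, and from 91178 to 100737 CPM in Lats1/2 flox ctrl and 86936 to 89397 CPM in Lats1/2 KO. The part of these cells in the results below was not tested, and in such samples fewer hepatocytes and less RNA per hepatocyte cannot be told apart. BL/6 Dox libraries 1 and 2 differed from 3 and 4 in the share of mitochondrial ribosomal RNA, at 9.40%, 7.55%, 14.5% and 13.8% of counts, and the labels name no batch.

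Of the 13 mitochondrial mRNAs 5 were hardly counted. mt-Atp8, mt-Co3 and mt-Nd4l had 0 counts over the 25 libraries, mt-Co2 had 1 and mt-Atp6 had 12, while the nuclear copies Gm28661, Gm28437 and Gm10925, annotated as unprocessed pseudogenes, had 331, 729 and 534. In the GENCODE M21 transcripts, 100% of the 50-base words of mt-Co2 also occur in another annotated transcript, as do 99.9% for mt-Co3, 99.5% for mt-Atp6 and 98.8% for mt-Nd4l. Of the genes that were counted, the share was 97.99% for mt-Nd3, 62.2% for mt-Nd4, 51.1% for mt-Co1, 8.19% for mt-Nd2 and 7.61% for mt-Nd5, and 0 for mt-Cytb, mt-Nd1 and mt-Nd6. mt-Atp8 also shares no such word, and it overlaps mt-Atp6 by 43 bases on the same strand. The libraries read the 3′ ends of polyadenylated RNA, so 60-base stretches at the gene ends are shown for 3 genes with nearly no count and, for contrast, for mt-Nd2, the mitochondrial gene with the most counts (GRCm38, 5′ to 3′ on the strand of the gene). For the first 3 genes the copy on chromosome 1 holds the same 60 bases. For mt-Nd2 the copy Gm13339 (chromosome 2, 22590024 to 22590533, minus strand) has 3 differences, in capitals.

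mt-Co2 and its copy Gm28661: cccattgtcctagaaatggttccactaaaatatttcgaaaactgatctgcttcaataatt
mt-Co3 and its copy Gm28437: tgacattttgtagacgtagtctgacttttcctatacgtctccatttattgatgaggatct
mt-Atp6 and its copy Gm10925: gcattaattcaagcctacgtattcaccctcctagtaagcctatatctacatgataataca
mt-Nd2: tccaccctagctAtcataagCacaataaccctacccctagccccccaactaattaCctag
Copy Gm13339 of mt-Nd2: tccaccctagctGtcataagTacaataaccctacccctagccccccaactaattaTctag

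The sources used here do not say how reads that match several places were counted or whether strand was used. The levels of mt-Nd3, mt-Nd4 and mt-Co1, whose sequence is partly shared, are uncertain, and no value is given below for the 5 genes that did not pass.

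Mitochondrial mRNAs made up a large share of each library, and this share was lower after Yap induction. In the 4 ApoYap ctrl libraries the 8 genes together held 14.1, 14.4, 13.1 and 16.6% of counts, and in the 3 ApoYap Dox libraries 6.32, 7.25 and 5.52%. The means were 14.6 ± 1.47% (SD, n = 4) and 6.37 ± 0.866% (SD, n = 3), so the induced share was 0.437 times the control share, and the groups did not overlap. The 93 nuclear genes together held 1.86, 1.96, 1.92 and 1.95% in ApoYap ctrl and 1.49, 1.61 and 1.36% in ApoYap Dox, again without overlap and with a ratio of means of 0.774. The mitochondrial sum thus changed by more than the nuclear sum in the same libraries. The ratio of mitochondrial to nuclear counts, which needs no scaling between libraries, was 7.58, 7.33, 6.85 and 8.504 in ApoYap ctrl and 4.23, 4.51 and 4.07 in ApoYap Dox. All 3 induced libraries lay below all other 22, whose lowest value was 6.82. Without the most abundant gene of each sum, mt-Nd2 and Atp5g3, the induced ratio was 0.655 times the control ratio, against 0.564 with them.

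In the Lats1/2 knockout the sums moved less. The mitochondrial share was 12.3, 13.01, 11.8 and 12.96% in the 4 Lats1/2 flox ctrl libraries and 11.4, 10.5 and 11.5% in the 3 Lats1/2 KO libraries, with means of 12.5 ± 0.5596% and 11.1 ± 0.518% (SD, n = 4 and 3) and no overlap. The nuclear share was 1.51, 1.43, 1.497 and 1.41% in the controls and 1.36, 1.43 and 1.68% in the knockout, and overlapped. The ratio ranged from 7.902 to 9.22 in the controls and from 6.82 to 8.33 in the knockout, and overlapped too.

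**Figure D1:**
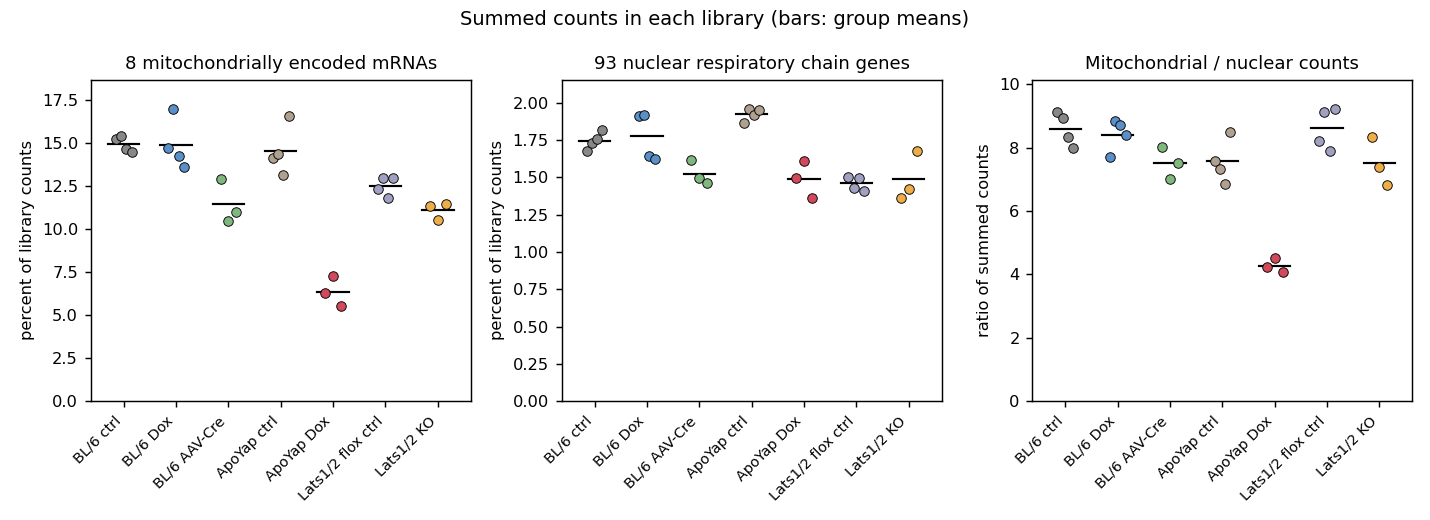
Share of library counts held by the 8 mitochondrially encoded mRNAs (left) and the 93 nuclear genes (middle), in percent, and the ratio of the summed counts (right), with 1 point per library and a bar for the group mean. The 3 ApoYap Dox libraries have ratios of 4.07 to 4.51, below the 22 other libraries.

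Each gene was then compared with TMM scaling, which sets libraries to a common level over most genes, and values below are TMM-scaled CPM unless a share of counts is named. All 8 mitochondrial mRNAs fell under Yap induction, where 32.0% of the 12970 genes tested fell. Their median log2 fold change was −2.08, against 0.07 over all genes tested. mt-Nd2 (chromosome M, 3914 to 4951), a core membrane subunit of complex I, had the largest change of the 8. It stood at 67111, 55836, 50997 and 61278 CPM in ApoYap ctrl and at 9691, 11979 and 7675 CPM in ApoYap Dox, a log2 fold change of −2.59 (SE 0.18, edgeR adjusted p = 5.7e-12). The highest induced library lay far below the lowest control library. Of the counts of the 8 genes, mt-Nd2 held 37.8 ± 3.88% in ApoYap ctrl and 26.8 ± 1.17% in ApoYap Dox (SD, n = 4 and 3), without overlap. In 3′ tag data a count does not grow with transcript length, but the sequence shared with copies differs between these genes. Such shares are compared between groups here and do not rank the genes by abundance.

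The other complex I genes of the mitochondrial DNA followed. mt-Nd1 (chromosome M, 2751 to 3707), which lines the quinone site, stood at 14458, 14862, 14351 and 16165 CPM in ApoYap ctrl and 3208, 3684 and 3139 CPM after induction, a log2 fold change of −2.16 (SE 0.14, edgeR adjusted p = 3.2e-12). mt-Nd4 (chromosome M, 10167 to 11544), a proton-pumping subunit, went from 42637, 50971, 40446 and 62954 CPM to 13441, 16228 and 11917 CPM, a change of −1.83 (SE 0.19, edgeR adjusted p = 6.4e-09). The mt-Nd4 share of the mitochondrial counts was higher after induction, at 38.3% against 31.3% and without overlap. mt-Nd5 (chromosome M, 11742 to 13565), a further pumping subunit, stood at 3290.1 to 3989 CPM and 680.2 to 1061 CPM and fell by 2.07 on the log2 scale. mt-Nd6 (chromosome M, 13552 to 14070) is the one protein gene on the opposite strand of the mitochondrial DNA, and overlaps the end of mt-Nd5 by 14 bases, so that reads of the pair could be told apart there only by strand. It stood at 4031 to 5388 CPM and 1143 to 1632 CPM, a change of −1.78 (SE 0.18, edgeR adjusted p = 3.8e-09). Counts of genes annotated on both strands thus fell, and in neither case did the groups overlap. Whether strand was used is not given, so the strand of the RNA counted as mt-Nd6 is not known. mt-Nd3 (chromosome M, 9459 to 9806), whose sequence is nearly all shared with Gm28438, was far lower and more scattered, at 12.9, 47.5, 60.6 and 24.7 CPM and 7.52, 4.16 and 13.9 CPM, with overlapping groups and a change of −2.09 (SE 0.67, edgeR adjusted p = 0.0097). It was not called when libraries were scaled by total counts alone (−1.17, edgeR adjusted p = 0.11).

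The remaining mitochondrial genes serve complexes III and IV. mt-Cytb (chromosome M, 14145 to 15288), cytochrome b of complex III, stood at 19024, 22118, 17650.4 and 25436 CPM in ApoYap ctrl and 6163, 7659 and 4925 CPM in ApoYap Dox and had the smallest change of the 8, −1.75 (SE 0.18, edgeR adjusted p = 4.4e-09). mt-Co1 (chromosome M, 5328 to 6872), the catalytic subunit of complex IV, stood at 3951, 3322, 3311 and 3683 CPM and 776, 946 and 633 CPM, a change of −2.18 (SE 0.16, edgeR adjusted p = 1.7e-11). For both, each induced library lay below each control library.

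In the knockout 6 of the 8 mitochondrial mRNAs fell, where 17.4% of genes tested fell, and their median was −0.67 against −0.03 over all genes. mt-Co1 stood at 5464, 6283, 4903 and 5794 CPM in Lats1/2 flox ctrl and 3859, 2902 and 3069 CPM in Lats1/2 KO and had the largest change, −0.78 (SE 0.15, edgeR adjusted p = 0.00029). mt-Nd5 was at 4564 to 6316 CPM and 2972 to 3819 CPM, a change of −0.72 (SE 0.15, edgeR adjusted p = 0.00058). mt-Nd2 was at 59481 to 68954 CPM and 31759 to 43179 CPM, a change of −0.71 (SE 0.17, edgeR adjusted p = 0.0015). In all 3 cases the groups did not overlap. mt-Nd6 fell by 0.70, mt-Nd1 by 0.64 and mt-Nd4 by 0.60 on the log2 scale. The mt-Nd4 call was lost without Lats1/2 KO 2 (−0.54, edgeR adjusted p = 0.057). mt-Cytb did not pass the test, with 15181, 18364, 14829 and 17553 CPM against 13031, 10960.4 and 14192 CPM and a log2 difference of −0.37 (SE 0.17, edgeR adjusted p = 0.087), although its groups did not overlap. mt-Nd3 did not pass either (−0.17, edgeR adjusted p = 0.86). Scaling by total counts alone left none of the 8 called in the knockout by edgeR, with a median of −0.20, while the median of all genes then stood at 0.44.

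**Figure D2:**
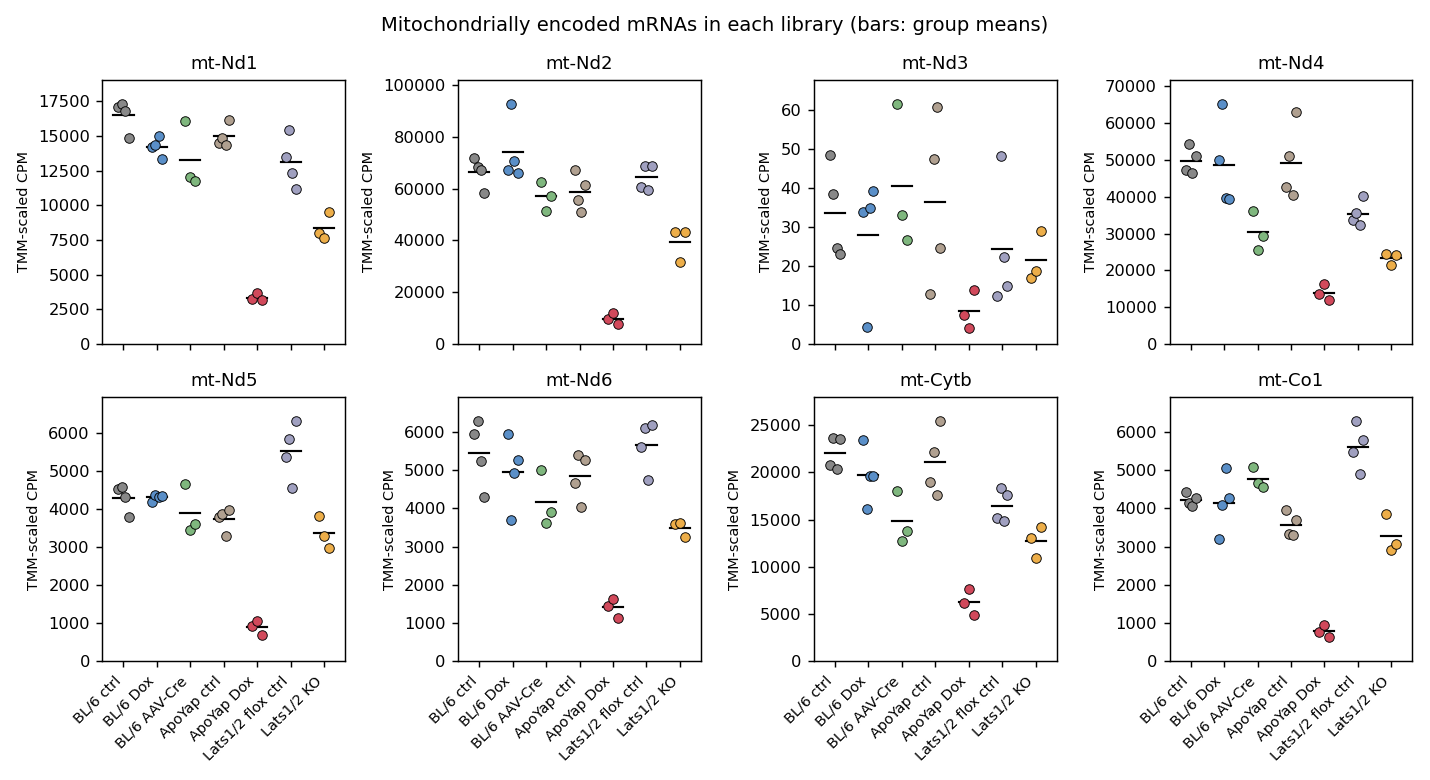
TMM-scaled CPM of the 8 mitochondrially encoded mRNAs in each library, on linear axes from 0, with 1 point per library and a bar for the group mean. The ApoYap Dox libraries lie below all ApoYap ctrl libraries for every gene except mt-Nd3, whose scale is under 70 CPM.

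Nuclear respiratory chain genes fell almost as a block under Yap induction and by less than the mitochondrial ones. Of the 93, 85 fell, 1 rose and 7 were not called, where 32.0% of genes tested fell and 35.0% rose. Their median log2 fold change was −1.19, with quartiles at −1.41 and −1.08. That spread of 0.32 between quartiles compares with 1.75 over all genes tested, which were not matched to these genes in level. The knockout had 59 lower, 2 higher and 32 uncalled genes and a nuclear median of −0.42, beside 17.4% lower and 20.6% higher over all genes tested. The groups did not overlap for 87 lower and 1 higher gene under induction, where 32.6% and 36.7% of genes tested separated in that way, and for 58 lower and 3 higher genes in the knockout (18.8% and 20.9%).

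In the knockout the sign of the nuclear change depended on the scaling. With total counts alone the median of all genes moved from 0.07 to 0.99 under induction and from −0.03 to 0.44 in the knockout. Of all genes tested 66.4% then rose and 12.6% fell under induction, and 44.6% and 4.41% in the knockout. The edgeR calls among the 93 nuclear genes were then 46 lower and 5 higher under induction and 3 lower and 9 higher in the knockout, where the nuclear median turned from −0.42 to 0.04. Relative to the median of all genes the nuclear median was nearly the same under both scalings, at −1.26 and −1.26 for induction and −0.39 and −0.40 for the knockout. The mitochondrial median lay at −2.15 with either scaling and at −0.64 with either. Another scaling moves all genes of a comparison by nearly the same amount, so this match was fixed in advance and is no test. The changes given here are therefore relative to other genes of the same libraries. The knockout count also rested on single libraries: without Lats1/2 KO 2 it was 25 lower genes, without Lats1/2 KO 1 34, and with only the 2 compared groups in the fit 33. That last fit called 1400 of 11613 genes lower.

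**Figure D3:**
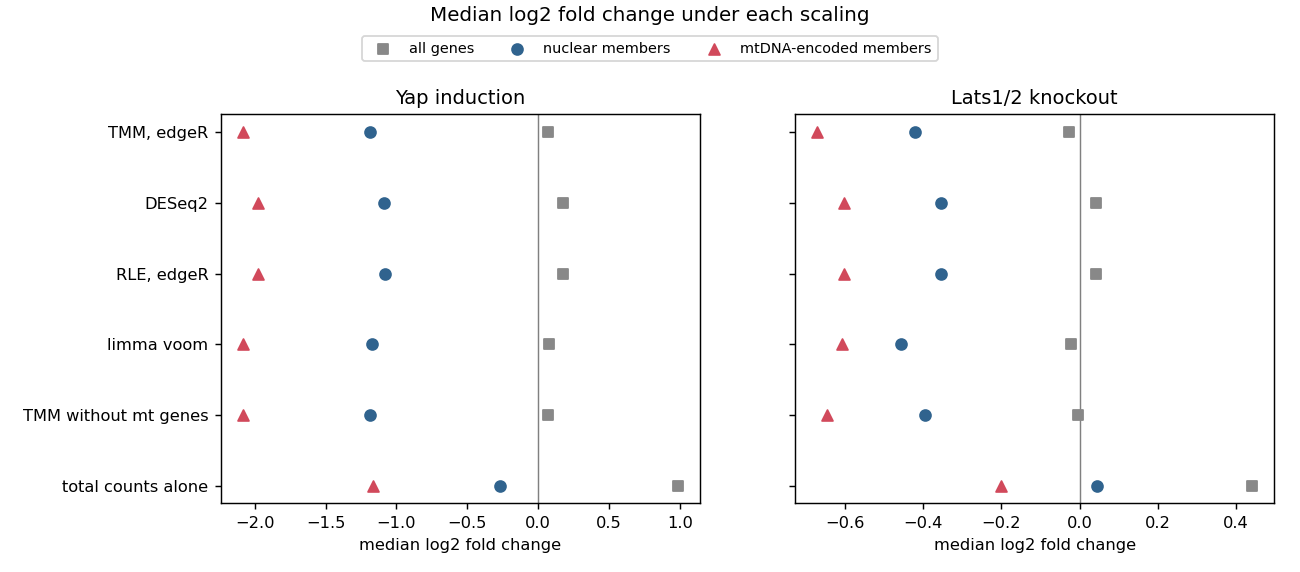
Median log2 fold change of all genes tested (squares), the 93 nuclear genes (circles) and the 8 mitochondrially encoded genes (triangles) under 6 scalings or tests, with the treatment named above each panel. Total counts alone shifts all 3 medians upwards together, and in the knockout it takes the nuclear median from −0.42 to 0.04.

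Complex I, which oxidises NADH, had 36 of 38 nuclear genes lower under induction (median −1.18) and 29 of 38 lower in the knockout (−0.44). The shares lower over all genes tested were 32.0% and 17.4%. Total counts alone gave 17 lower and 1 higher under induction, and 0 lower and 3 higher in the knockout. Over all genes tested it gave 12.6% lower and 66.4% higher under induction, and 4.41% and 44.6% in the knockout. Ndufv1, the flavoprotein subunit that accepts electrons from NADH, stood at 257, 245, 233 and 257 CPM in ApoYap ctrl and 78.1, 94.7 and 72.2 CPM in ApoYap Dox, a change of −1.60 (SE 0.13, edgeR adjusted p = 9e-11). In the knockout it was at 218, 201, 204 and 245 CPM and 165, 139 and 174 CPM, a change of −0.45 (SE 0.13, edgeR adjusted p = 0.0064), which was lost without Lats1/2 KO 2 (−0.35, edgeR adjusted p = 0.063). All treated libraries lay below their controls in both settings. Ndufb4, an accessory subunit of the membrane arm, changed by −1.40 (SE 0.12, edgeR adjusted p = 1.7e-10) under induction. Ndufa6 and Ndufa7, accessory subunits of the matrix arm, had the smallest p-values of complex I in the knockout, with changes of −0.71 (SE 0.14, edgeR adjusted p = 0.00025) and −0.55 (SE 0.10, edgeR adjusted p = 0.00011). Neither was called there with total counts alone (−0.26 and −0.08). Under induction Ndufa6 changed by −1.68 and Ndufa7 by −0.94, among the larger and among the smaller values of the complex. The Ndufa7 difference under induction was −0.03, and not called, with total counts alone. The uncalled genes of complex I under induction were Ndufb6, named after its values were seen, at 12.1, 26.5, 21.7 and 19.95 CPM and 10.3, 7.51 and 8.16 CPM (−1.21, edgeR adjusted p = 0.061), and the pseudogene Ndufs6b (0.47), which total counts alone called higher (1.36, edgeR adjusted p = 0.019). ApoYap ctrl 1 was the lowest control for Ndufb6, which was called lower without that library (−1.39, edgeR adjusted p = 0.044).

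Complex II oxidises succinate and belongs to the tricarboxylic acid cycle as well, and all 4 of its subunits fell under induction (median −1.42). Sdha (chromosome 13, 74322254 to 74350280), the flavoprotein subunit, stood at 293, 291, 266 and 295 CPM in ApoYap ctrl and 92.6, 97.9 and 78.9 CPM in ApoYap Dox, a change of −1.67 (SE 0.12, edgeR adjusted p = 1.9e-11). In the knockout it went from 289, 265, 248 and 275 CPM to 167, 156 and 221 CPM, a change of −0.57 (SE 0.12, edgeR adjusted p = 0.00054). This Sdha call in the knockout was lost with total counts alone (−0.11, edgeR adjusted p = 0.39). Sdhb, the iron-sulphur subunit, fell by 1.37 under induction and by 0.47 in the knockout (edgeR adjusted p = 0.016), and the second call was lost without Lats1/2 KO 1 (0.087) or Lats1/2 KO 2 (0.11). Sdhc and Sdhd, the membrane anchors, named after their values were seen, had values of −1.16 and −1.47 under induction, both called, and of −0.37 and −0.74 in the knockout, neither called. So 2 of 4 subunits fell in the knockout with TMM scaling. Over all genes tested 32.0% fell under induction and 17.4% in the knockout. Total counts alone gave 2 of the 4 lower under induction and 0 in the knockout, beside 12.6% and 4.41% of genes tested.

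Complex III passes electrons to cytochrome c. Its 8 nuclear genes all fell under induction (median −1.42), and 6 of 8 fell in the knockout (−0.43). The shares lower over all genes tested were 32.0% and 17.4%. Total counts alone gave 7 lower under induction and 0 in the knockout, beside 12.6% and 4.41% of genes tested. Uqcrh (chromosome 4, 116066965 to 116075071), the hinge protein that binds cytochrome c1, stood at 446, 432, 392 and 435 CPM and 140.4, 158 and 132 CPM, a change of −1.57 (SE 0.11, edgeR adjusted p = 5.8e-12). In the knockout it stood at 418, 416, 393 and 437 CPM and 303, 237 and 303 CPM, a change of −0.57 (SE 0.11, edgeR adjusted p = 0.00017), without overlap in either setting. The Uqcrh call in the knockout was lost with total counts alone (−0.10, edgeR adjusted p = 0.29). Uqcrc2, a core protein, changed by −1.42 (SE 0.12, edgeR adjusted p = 2e-10) under induction and Uqcrb, a small subunit near the quinone site, by −0.60 (SE 0.13, edgeR adjusted p = 0.00054) in the knockout. Cyc1, cytochrome c1, does not carry the symbol of the family, and is described with the mobile carriers below.

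Complex V makes ATP. Of its 17 nuclear genes 16 fell under induction (median −1.19) and 10 in the knockout (−0.42). The shares lower over all genes tested were 32.0% and 17.4%. Total counts alone gave 11 lower and 1 higher under induction, where 12.6% of genes tested fell and 66.4% rose. In the knockout it called 0, where 4.41% fell and 44.6% rose. Atp5pb, the stator subunit b, stood at 278, 319.9, 316 and 285 CPM and 120.1, 132 and 101 CPM, a change of −1.35 (SE 0.11, edgeR adjusted p = 1.6e-10). Atp5c1, the central stalk subunit gamma, changed by −1.32 (SE 0.12, edgeR adjusted p = 3.3e-10). In the knockout the smallest p-values were those of Atp5d and Atp5e, the subunits delta and epsilon of the central stalk, at −0.55 (SE 0.12, edgeR adjusted p = 0.00086) and −0.49 (SE 0.12, edgeR adjusted p = 0.0015). Neither was called there with total counts alone (−0.08 and −0.03). The calls of Atp5pb and Atp5c1 in the knockout, at −0.35 and −0.38, were lost without Lats1/2 KO 2 (edgeR adjusted p = 0.11 and 0.099), and that of Atp5pb also without Lats1/2 KO 1 (0.083).

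Of the 12 assembly factors 11 fell under induction (median −0.97) and 5 in the knockout (−0.30), beside 32.0% and 17.4% of genes tested. With total counts alone the calls were 3 lower and 1 higher, and 3 lower and 4 higher. By that scaling 12.6% of genes tested fell and 66.4% rose under induction, and 4.41% and 44.6% in the knockout. Ndufaf6 (chromosome 4, 11051045 to 11076205), needed early in complex I assembly, stood at 16.95, 18.7, 18.6 and 16.1 CPM in ApoYap ctrl and 5.06, 5.11 and 4.295 CPM in ApoYap Dox, a change of −1.86 (SE 0.13, edgeR adjusted p = 9.4e-12). In the knockout it went from 18.2, 20.1, 18.9 and 18.1 CPM to 9.34, 9.99 and 12.04 CPM, a change of −0.84 (SE 0.13, edgeR adjusted p = 1.6e-05). It was clear of its controls in both. Ndufaf4 fell by 1.40 and by 0.81, whereas Ndufaf1 fell by 1.73 under induction and was not called in the knockout (−0.38, edgeR adjusted p = 0.07), though it was without Lats1/2 flox ctrl 2 (−0.45). Sdhaf1, which helps to insert the iron-sulphur clusters of complex II and was named after its values were seen, had values of −1.01 and −0.97, both called. Ndufaf5, named after its values were seen, was called in neither (−0.41 and 0.30).

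**Figure D4:**
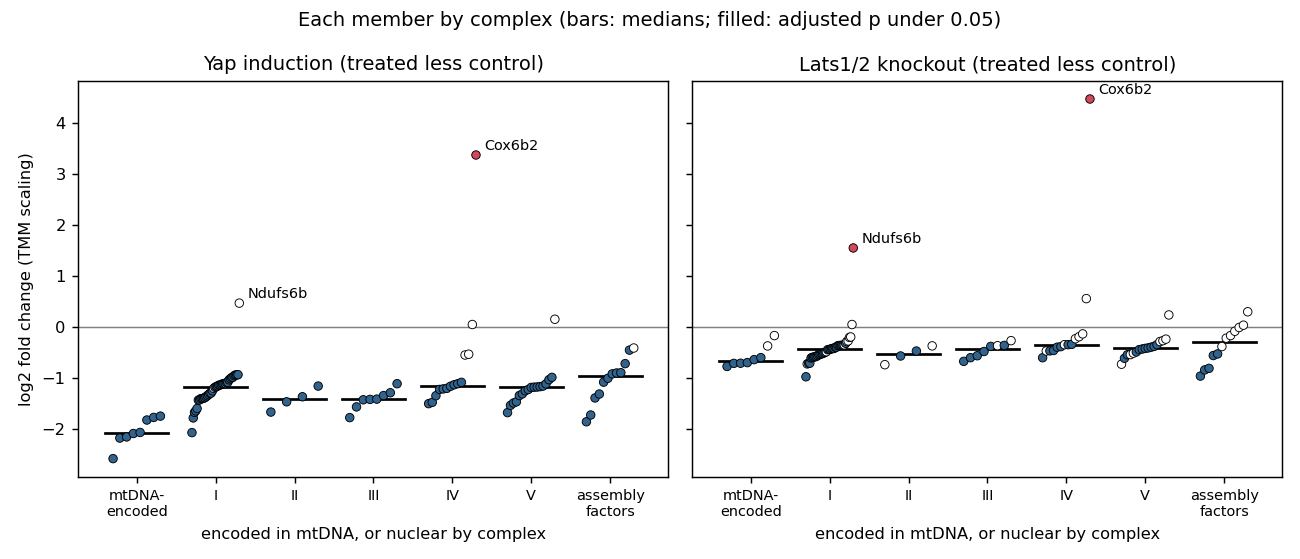
Log2 fold change (TMM scaling) of each of the 101 genes under Yap induction (left) and in the Lats1/2 knockout (right), with the mitochondrially encoded genes first and the nuclear genes by complex. Filled points passed an edgeR adjusted p of 0.05, blue lower and red higher. Bars are medians, from −2.08 to −0.97 on the left and from −0.67 to −0.30 on the right. With total counts alone 9 of the 93 nuclear genes were called higher and 3 lower in the knockout. By that scaling 44.6% of genes tested rose there and 4.41% fell.

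Complex IV, cytochrome c oxidase, reduces oxygen, and its small subunits come in isoforms of different tissues. Of 14 nuclear genes 10 fell and 1 rose under induction (median −1.15), and 7 fell and 1 rose in the knockout (−0.35). Over all genes tested 32.0% fell and 35.0% rose under induction, and 17.4% and 20.6% in the knockout. Total counts alone gave 6 lower and 2 higher under induction, where 12.6% of genes tested fell and 66.4% rose. In the knockout it gave 0 lower and 2 higher, where 4.41% fell and 44.6% rose. The gene that rose in both treatments with TMM scaling was Cox6b2 (chromosome 7, 4751792 to 4753094, minus strand), known as the testis isoform of subunit 6B. It stood at 0.565, 0.419, 0.935 and 0.1003 CPM in ApoYap ctrl and 4.08, 8.32 and 3.62 CPM in ApoYap Dox, a log2 fold change of 3.38 (SE 0.54, edgeR adjusted p = 4.8e-06). In Lats1/2 flox ctrl it stood at 0.1097, 0.227, 0 and 0.887 CPM and in Lats1/2 KO at 10.1, 6.36 and 5.94 CPM, a log2 fold change of 4.48 (SE 0.59, edgeR adjusted p = 2.5e-06). Each treated library lay above every library of the 5 other groups, whose highest value was 1.23 CPM. The raw counts were few in the controls, 23 over the 4 ApoYap ctrl libraries and 12 over the 4 Lats1/2 flox ctrl libraries, against 372 and 322 over 3 treated libraries each. Cox6b2 reached 1 CPM in 3 libraries only through ApoYap Dox and Lats1/2 KO, where it was high, so its place in the set depended on its rise. The filter of 10 CPM in 3 libraries removed Cox6b2. Cox5a, a structural subunit named after its values were seen, was at 7.42, 18.8, 14.9 and 12.4 CPM and 10.3, 5.56 and 11.7 CPM, overlapped and was not called (−0.54, edgeR adjusted p = 0.48).

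Its widely expressed partner Cox6b1 (chromosome 7, 30616861 to 30626151, minus strand) was counted far above it and fell. It stood at 426, 431, 395 and 429.7 CPM in ApoYap ctrl and 179, 210.2 and 158 CPM in ApoYap Dox, a change of −1.21 (SE 0.13, edgeR adjusted p = 1.7e-08). In the knockout it stood at 299.9, 308, 313 and 305 CPM and 227, 203 and 295 CPM, a change of −0.34 (SE 0.13, edgeR adjusted p = 0.04), which was lost when any of the 7 libraries except Lats1/2 KO 3 was left out, with edgeR adjusted p-values of 0.053 (without Lats1/2 flox ctrl 1) to 0.25 (without Lats1/2 KO 2). Even in the treated libraries Cox6b2 thus had a small fraction of the counts of Cox6b1. The Cox6b1 difference in the knockout turned to 0.12 with total counts alone. The promoter windows of this pair are shown because the isoforms moved in opposite directions. They run from 250 bases before to 50 after the annotated start (RefSeq, GRCm38.p6, minus strand, chr7:4753045-4753344 and chr7:30626065-30626364), and capitals mark the GABPA core CCGGAAG, read here on the opposite strand, which was found in Cox6b1 only.

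Cox6b2 promoter: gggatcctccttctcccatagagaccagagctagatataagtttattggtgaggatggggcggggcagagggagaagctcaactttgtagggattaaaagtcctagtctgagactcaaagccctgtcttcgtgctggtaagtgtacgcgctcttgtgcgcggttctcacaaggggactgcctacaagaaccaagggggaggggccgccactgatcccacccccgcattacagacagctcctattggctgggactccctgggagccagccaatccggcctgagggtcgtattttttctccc
Cox6b1 promoter: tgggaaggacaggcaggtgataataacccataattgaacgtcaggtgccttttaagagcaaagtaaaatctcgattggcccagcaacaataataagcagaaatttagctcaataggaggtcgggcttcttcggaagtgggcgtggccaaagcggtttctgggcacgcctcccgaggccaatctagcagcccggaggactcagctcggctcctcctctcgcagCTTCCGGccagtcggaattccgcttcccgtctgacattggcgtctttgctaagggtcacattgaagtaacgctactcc

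Of the 93 nuclear genes 78 matched a RefSeq promoter window of 300 bases, and these were searched on both strands for 4 short motifs. The NRF1 core GCATGCG, which reads GCATGCG or CGCATGC and can overlap itself, was in 16.67% of the 78 windows and in 7.121% of the 9999 windows of genes tested. CCGGAAG was in 28.21% and 19.61%, the YY1 core AAGATGG in 15.38% and 8.331%, and the TEAD core GGAATG, the motif of the factors that carry YAP to DNA, in 10.26% and 14.52%. These are shares of windows that hold the letters, not of sites bound. CCGGAAG and AAGATGG can share the letters AAG, and each was counted on its own.

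The other isoform sets were also mixed. Cox7a2, the liver form of subunit 7A, stood at 503, 519.8, 462 and 489 CPM in ApoYap ctrl and 211, 252 and 174 CPM in ApoYap Dox, a change of −1.22 (SE 0.14, edgeR adjusted p = 5.6e-08). Cox7a2l (chromosome 17, 83501918 to 83517330), related in sequence and known for joining complexes III and IV in supercomplexes, stood at 83.6, 70.4, 74.7 and 74.1 CPM and 77.8, 77.05 and 80.1 CPM, a difference of 0.05 (SE 0.16, edgeR adjusted p = 0.8). Its groups overlapped and it was not called, while its partner fell. Scaled by total counts alone, Cox7a2l was called higher (0.97). Cox7a1, the muscle and heart form, was at 5.09, 3.35, 2.91 and 5.41 CPM and 2.96, 3.35 and 2.27 CPM and was not called (−0.55, edgeR adjusted p = 0.064), but was called without ApoYap ctrl 2 (−0.65, 0.044) or ApoYap ctrl 3 (−0.68, 0.030). In the knockout the 3 genes had values of −0.46, −0.19 and 0.56 in the same order, and the first was called (edgeR adjusted p = 0.011), but not without Lats1/2 KO 2 (0.067). Cox7a1 was called higher in the knockout without Lats1/2 flox ctrl 1 (0.84, edgeR adjusted p = 0.017) and with total counts alone (1.02).

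Subunit c of the ATP synthase ring is encoded by 3 genes with the same mature protein. Atp5g3, the most abundant nuclear gene of the set, stood at 1543, 1536, 1324 and 1517 CPM and 532, 627 and 416 CPM, a change of −1.50 (SE 0.14, edgeR adjusted p = 7.1e-10). Atp5g1 stood at 228, 239.8, 214 and 233 CPM and 72.8, 97.5 and 65.6 CPM, a change of −1.54 (SE 0.16, edgeR adjusted p = 5.1e-09). Atp5g2 was low, at 0.989, 1.43, 1.56 and 0.702 CPM and 1.66, 0.8596 and 1.35 CPM, with overlapping groups and a difference of 0.15 (SE 0.41, edgeR adjusted p = 0.76). Atp5g2 was called higher with total counts alone (1.07, edgeR adjusted p = 0.020). With TMM scaling the 2 abundant copies fell and the low one did not pass the test, and 38.35% of the 50-base words of Atp5g2 are shared with other transcripts. In the knockout the 3 had values of −0.43, −0.27 and 0.24, and Atp5g3 was called (edgeR adjusted p = 0.011), but not without Lats1/2 KO 1 (0.055) or Lats1/2 KO 2 (0.096). The main forms Cox4i1, Cox6a1 and Cox8a fell by 1.09, 1.23 and 1.11 under induction, while their tissue-restricted partners Cox4i2, Cox6a2 and Cox8b did not reach 1 CPM in 3 libraries. Ndufa4, a complex IV subunit despite its name, fell by 1.17 under induction and its partner Ndufa4l2 did not pass the threshold.

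Copies with shared sequence need care. Ndufs6b (chromosome 7, 81161397 to 81161744), a processed pseudogene within Slc28a1, rose in the knockout from 0.549, 0.114, 0.476 and 0.394 CPM to 0.778, 0.958 and 1.64 CPM, a change of 1.55 (SE 0.53, edgeR adjusted p = 0.023), from 14 and 54 raw counts over the group. Ndufs6b, too, reached 1 CPM in 3 libraries only through ApoYap Dox and Lats1/2 KO. Its call in the knockout was lost without Lats1/2 KO 3 (1.16, edgeR adjusted p = 0.14), without Lats1/2 flox ctrl 2 (1.26, 0.078) and with no filter (0.059). Ndufs6, with which it shares 25.42% of its words, was at 168 to 192 CPM and 125 to 155 CPM in the same libraries and fell (−0.36, edgeR adjusted p = 0.031). Leaving out 1 library at a time, the Ndufs6 call was lost without Lats1/2 KO 1 (0.075), Lats1/2 KO 2 (0.17), Lats1/2 flox ctrl 2 (0.074) or Lats1/2 flox ctrl 3 (0.064). Ndufb4c (chromosome 15, 73809507 to 73809896) is also a processed pseudogene, and all of its words occur in Ndufb4. It fell by 2.08 under induction, and Ndufb4 by 1.40. Ndufs6 and Ndufb4c were named after their values were seen. Of the 91 nuclear genes found in the annotation, 15 shared at least 10% of their words with another transcript and 44 shared none.

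**Figure D5:**
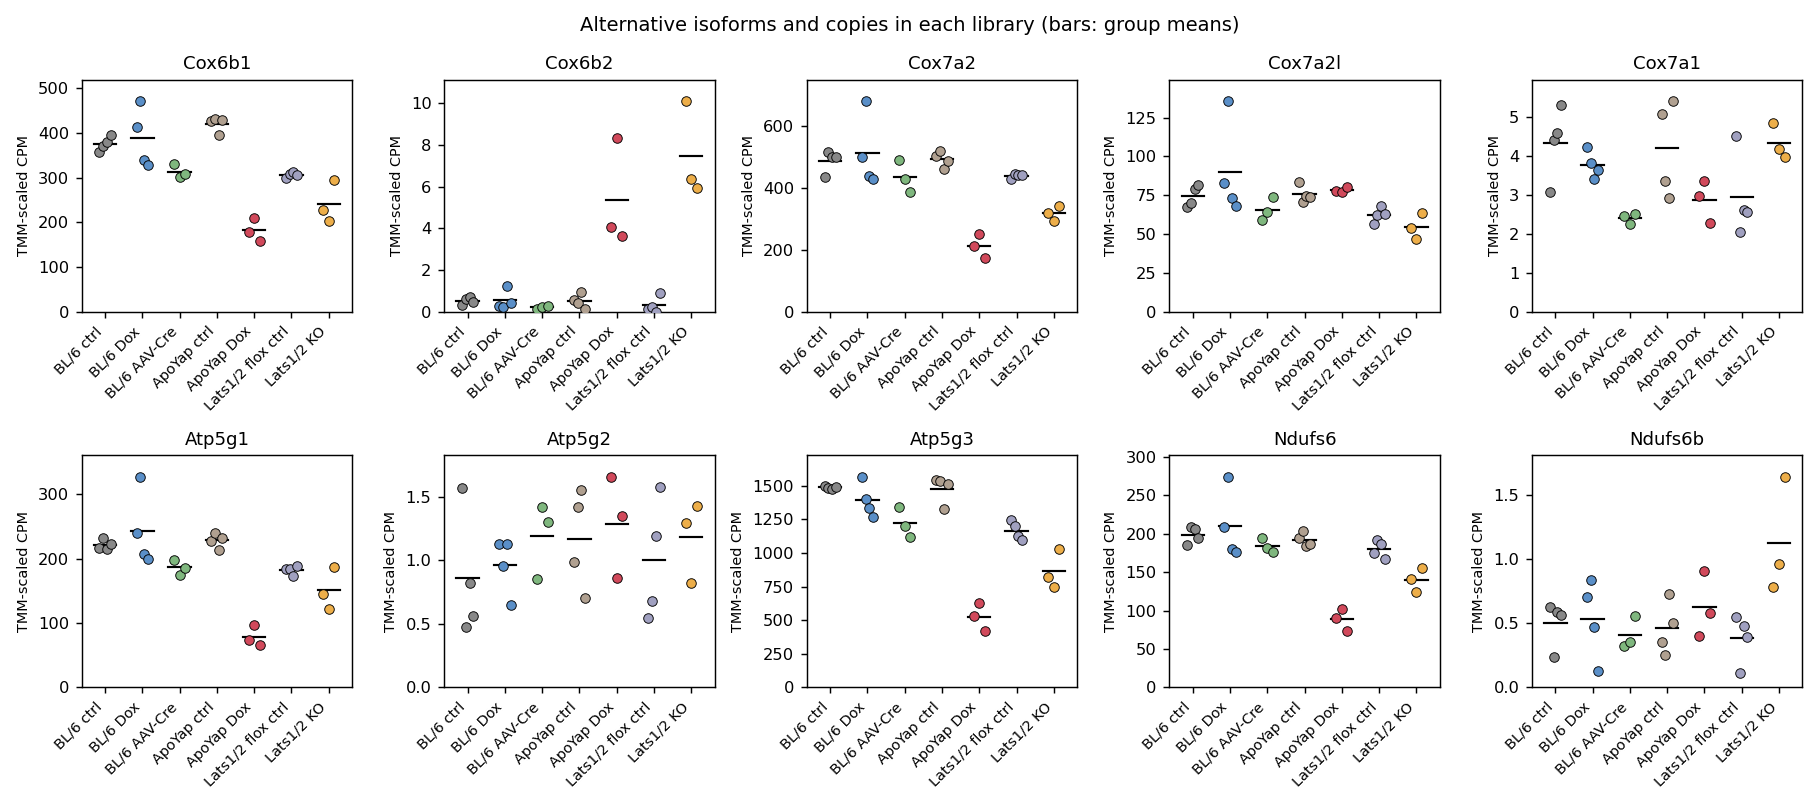
TMM-scaled CPM of alternative isoforms and copies in each library, on linear axes from 0, with 1 point per library and a bar for the group mean. Cox6b2 reaches 3.62 to 10.1 CPM in the ApoYap Dox and Lats1/2 KO libraries and stays at or below 1.23 CPM in all others, while Cox6b1 is lower in ApoYap Dox than in ApoYap ctrl.

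Genes that serve the chain from outside the symbol rule were counted in lists. Of 35 genes for mitochondrial transcription, replication and RNA handling, 22 fell and 1 rose under induction (median −0.70), where 32.0% of genes tested fell, and 8 fell in the knockout (−0.28), near the 17.4% of genes tested that fell there. With total counts alone 5 fell and 10 rose, and 0 fell and 5 rose. By that scaling 12.6% of genes tested fell and 66.4% rose under induction, and 4.41% and 44.6% in the knockout. Lrpprc, which stabilises mitochondrial mRNAs, changed by −1.69 (SE 0.24, edgeR adjusted p = 1.3e-06) and in the knockout by −0.67 (SE 0.23, edgeR adjusted p = 0.024). Tfam, the factor that packages mitochondrial DNA and starts its transcription, changed by −0.98 (SE 0.13, edgeR adjusted p = 6e-07) and −0.42 (SE 0.13, edgeR adjusted p = 0.015). Both fell in both settings with TMM scaling, while total counts alone left only Lrpprc under induction called (−0.77), with Tfam at −0.06 there. Polrmt, the mitochondrial RNA polymerase, fell by 0.79 under induction and was at −0.30 in the knockout, not called, and Slirp, the partner of Lrpprc, fell by 0.44 and was at −0.14, not called. With total counts alone Slirp was called higher in both (0.47 and 0.33), and Polrmt was called in neither (0.13 and 0.17). Grsf1, a mitochondrial RNA-binding protein, fell by 1.28 and 0.59, or by 0.36 under induction with total counts alone. The gene that rose, Angel2 (0.41), was named after its values were seen, as were the other lone exceptions and Sirt3 and Pprc1 below.

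Among regulators of nuclear respiratory genes the calls were near the shares over all genes under induction and fewer in the knockout. Of 15 coactivators and transcription factors, 5 rose and 5 fell under induction (median −0.04), where 35.0% of genes tested rose and 32.0% fell. In the knockout 1 rose and 1 fell (20.6% and 17.4%). Total counts alone gave 9 higher and 3 lower under induction, where 66.4% and 12.6% of genes tested were called. In the knockout it gave 8 higher and 0 lower, where 44.6% and 4.41% were called. Ppargc1a, the coactivator PGC-1α, changed by −0.99 (SE 0.22, edgeR adjusted p = 0.00039) under induction and by 0.12 (SE 0.22, edgeR adjusted p = 0.71) in the knockout. The Ppargc1a call under induction was lost with total counts alone (−0.08). Nrf1 rose by 0.86 under induction and had a value of 0.25 in the knockout, not called. Gabpa and Esrra were called in neither. With total counts alone Nrf1 (0.72), Ppargc1a (0.58) and Gabpa (0.42) were called higher in the knockout, with Gabpa close to the threshold (edgeR adjusted p = 0.0499987). Gabpa was then also called higher under induction (0.76), and Esrra still in neither. Sirt3, the mitochondrial deacetylase, fell by 1.49 and 0.70, and Pprc1, a relative of Ppargc1a, rose by 1.65 under induction. The Sirt3 call in the knockout was lost with total counts alone (−0.24, edgeR adjusted p = 0.42).

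Other mitochondrial lists were mostly lower under induction with TMM scaling, where 32.0% of genes tested fell, but with total counts alone the calls among ribosomal protein genes were 11 lower and 21 higher, among carriers 8 and 6, in the cycle 7 and 4, among membrane and matrix genes 7 and 6 and among mitophagy genes 1 and 6. By that scaling 12.6% of genes tested fell and 66.4% rose under induction. The knockout then had more higher than lower calls in each of these lists, where 44.6% of genes tested rose and 4.41% fell. Of 75 mitochondrial ribosomal protein genes 64 fell and 1 rose, Mrps6 (median −0.77), and in the knockout 22 fell and 1 rose, again Mrps6 (−0.25). Of 20 genes for mobile carriers and other inputs 17 fell (−1.13), led by Cycs, cytochrome c, at −1.67 (SE 0.13, edgeR adjusted p = 3.3e-11) and Cyc1, cytochrome c1, at −1.61 (SE 0.13, edgeR adjusted p = 4.4e-11), and in the knockout 8 fell and 1, Coq7, rose (−0.29). Of 17 tricarboxylic acid cycle genes 14 fell and 1 rose (−1.02), and in the knockout 11 fell and 1 rose (−0.40). The exception was Idh2, mitochondrial isocitrate dehydrogenase, at 0.84 (SE 0.13, edgeR adjusted p = 4.4e-06) and 1.35 (SE 0.13, edgeR adjusted p = 5.1e-08). Assembly factors outside the symbol rule fell in 10 of 11 cases for complex I and 20 of 24 for complexes III and IV under induction, and in 3 of 11 and 6 of 24 in the knockout, where 17.4% of genes tested fell. With total counts alone the calls were 3 lower and 1 higher for complex I and 3 lower and 5 higher for complexes III and IV under induction, and 0 lower with 2 and 3 higher in the knockout. Of 26 membrane and matrix genes 23 fell and 1 rose, and in the knockout 10 fell and 1 rose. Among 12 mitophagy genes 9 fell and 2 rose, and in the knockout 5 fell.

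The list of uncoupling and glycolytic genes had calls in both directions. Of 12 tested, 5 rose and 3 fell under induction, where 35.0% of genes tested rose and 32.0% fell, and 6 rose and 2 fell in the knockout (20.6% and 17.4%). With total counts alone 8 rose and 2 fell, and 6 rose and 0 fell, where 66.4% of genes tested rose and 12.6% fell under induction, and 44.6% and 4.41% in the knockout. Ucp2, an inner membrane carrier, changed by 4.45 (SE 0.36, edgeR adjusted p = 7e-10) and 2.35 (SE 0.38, edgeR adjusted p = 5.8e-05), and Slc25a4, the muscle and heart form of the ADP/ATP carrier, by 4.63 (SE 0.36, edgeR adjusted p = 1.6e-10) and 3.23 (SE 0.39, edgeR adjusted p = 1.6e-06). Pkm and Hk2, glycolytic enzymes more typical of tissues other than liver, rose by 5.02 and 6.08 under induction and by 3.50 and 3.11 in the knockout. These 4 rose in the libraries in which the macrophage and endothelial markers were high, and the part of those cells was not tested.

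Doxycycline, a drug that inhibits bacterial and mitochondrial ribosomes, was checked in BL/6 mice. None of the 101 genes was called, where 0.0231% of genes tested rose and 0.100% fell, and at an unadjusted p under 0.05 none of the 8 mitochondrial and 7 of the 93 nuclear genes passed, beside 11.9% of genes tested. DESeq2 and limma voom called none of them either. The groups did not overlap for 2 nuclear genes, both higher, where 3.33% of genes tested were higher and 3.29% lower in that way. The mitochondrial share was 15.3, 15.4, 14.6 and 14.5% in BL/6 ctrl and 14.7, 16.996, 14.3 and 13.6% in BL/6 Dox, and overlapped. The nuclear median log2 difference was 0.07, and it was −0.09 without BL/6 Dox 1 and 2 and 0.21 without BL/6 Dox 3 and 4. The difference between Yap induction and doxycycline alone was tested directly. For 7 of the 8 mitochondrial and 81 of the 93 nuclear genes the change was lower under induction, and for 1, Cox6b2, it was higher, where 27.4% and 26.7% of genes tested were called lower and higher. The place of Cox6b2 in the set depended on its rise in ApoYap Dox and Lats1/2 KO.

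The virus given to BL/6 mice 24 hours earlier gave no call among the 101 genes, where 0.254% of genes tested rose and 0.0463% fell. At an unadjusted p of 0.05, 4 of 8 mitochondrial and 17 of 93 nuclear genes passed, beside 13.3% of genes tested, and DESeq2 called 2 and 1 of them lower. The medians were −0.27 and −0.19, against −0.0020 over all genes tested. Without overlap 37 of the 93 nuclear genes lay lower and 2 higher, where 7.52% and 8.30% of genes tested did. The mitochondrial share was 12.9, 10.5 and 11.01% in the 3 BL/6 AAV-Cre libraries, below all 4 BL/6 ctrl libraries, and the ratio to nuclear counts overlapped. For the nuclear genes limma voom called 10 lower and a fit of the compared groups alone 14. Over all genes tested DESeq2 called 51 of 12970 lower, limma voom 212 of 12970 and the compared groups 224 of 10673. The doxycycline, virus and untreated strain comparisons share the BL/6 ctrl libraries.

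The knockout less the virus alone, with 1 week in one and 24 hours in the other, left few calls. Of the mitochondrial genes 2 were lower, mt-Co1 (−0.95, edgeR adjusted p = 0.0022) and mt-Nd5 (−0.58, edgeR adjusted p = 0.046), and of the nuclear genes 8 were lower and 2 higher, where 11.4% and 13.0% of genes tested were called. The 8 of 93 are a share below that background. The higher ones were Cox6b2 (5.70) and Cox7a1 (1.40), and the lower ones included Ndufaf6 (−0.99), Ndufaf4 (−0.86) and Uqcrh (−0.60). The place of Cox6b2 in the set depended on its rise in ApoYap Dox and Lats1/2 KO. Without Lats1/2 KO 3, 23 nuclear genes were lower, and with limma voom 27. By limma voom 2029 of the 12970 genes tested were lower. Under 6 of the alternative settings 1 mitochondrial gene was called lower in place of 2, and total counts alone called 1 lower and 2 higher, with a mitochondrial median of 0.0795. Of all genes tested total counts alone called 451 lower and 3487 higher.

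The size of the change differed between the treatments. The knockout change less the induction change, each against its own untreated strain, was above 0 for 7 of 8 mitochondrial genes (median 1.39) and 75 of 93 nuclear genes (0.81), where 17.4% of genes tested were called in that direction and 12.4% in the other. None of the 101 went the other way. Without ApoYap Dox 3 the nuclear count was 62. Total counts alone gave 32 nuclear genes higher and 1 lower, where 1174 of the genes tested were higher and 3653 lower. Between the untreated strains ApoYap ctrl and BL/6 ctrl no gene of the 101 was called, where 0.146% of genes rose and 0.293% fell. At an unadjusted p under 0.05, 2 nuclear genes and no mitochondrial gene passed, beside 7.52% of genes tested. DESeq2 called 1 nuclear gene higher, where 41 of the 12970 genes tested were higher. Between Lats1/2 flox ctrl and BL/6 ctrl 1 nuclear gene was higher (the pseudogene Ndufb4c) and 2 lower (Cox7b and Ndufb3, the second named after its values were seen). Of the genes tested 3.15% and 0.971% were called. At an unadjusted p under 0.05, 5 of 8 mitochondrial genes (2 higher and 3 lower) and 20 of 93 nuclear genes (2 higher and 18 lower) passed, beside 18.7% of genes tested. The mitochondrial and nuclear shares of counts in Lats1/2 flox ctrl were 0.838 and 0.837 times those in BL/6 ctrl, both without overlap, and mitochondrial ribosomal RNA was 1.78 times as high, again without overlap. The share of mt-Co1 among mitochondrial counts was 3.83 ± 0.162% in Lats1/2 flox ctrl and 2.51 ± 0.154% in BL/6 ctrl (SD, n = 4 each), without overlap.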

How the data were processed

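QuantSeq 3′ mRNA libraries, which read the 3′ ends of polyadenylated RNA, came from sorted hepatocytes, per the labels' protocols. The authors deposited 1 table of counts per gene for 25 libraries. The submitters' processing notes name FastQC, cutadapt, STAR 2.6.1d and the mm10 build, while no source used here names the counting tool, annotation, strand setting or treatment of reads with several matches. Such choices can move counts between a gene and its near-identical copies.

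Counts were tested with the quasi-likelihood test of edgeR 4.0.16 (R 4.3.3) on all 25 libraries, with TMM scaling, robust fitting and filterByExpr (minimum count 10, minimum total 15), which left 12970 genes. P-values were adjusted over all of them by the Benjamini-Hochberg method, and a gene was called at an adjusted p under 0.05. Totals of 8107539 to 16515330 counts limit the precision for genes of few counts, and no 2 replicates of a group agreed within sampling noise. Differences of differences used the same fit. Alternatives were DESeq2 1.42.0, limma 3.58.1 (voom with quality weights), RLE factors, total counts alone, totals and TMM without mitochondrial genes, an unfiltered table, a minimum of 10 CPM in 3 libraries, the compared groups only, a replicate block and each library left out. The promoter windows are from RefSeq (GRCm38.p6), and gene places and shared 50-base words are from GENCODE M21 (GRCm38).

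The members and lists were chosen with earlier results of these data known. Any member may be named. The rule named the mitochondrial genes, the isoform pairs and, per complex, the 2 nuclear genes with the smallest p in each direction, and the other members named with a test value, including Ndufb3, Ndufs5, Sdhaf1, Sdhc and Sdhd, were chosen after their values were seen.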

Additional observations from a re-analysis of the deposited data

Results flagged for a closer look

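In 192 groups of 4 values, 13 had 1 library apart from the other 3 (6.77%), by a gap over 0.829 of the range, and chance sets apart about 1 in 20. BL/6 Dox held 7 of them. In scaled CPM, BL/6 Dox 2 was apart for mt-Nd2 at 92866.7 (others 66229.6 to 70783), for mt-Nd3 at 4.29 (33.7 to 39.2), for Ndufv1 at 336 and for Uqcrh at 494. BL/6 Dox 1 was apart for Cox7b at 320.8, and BL/6 Dox 3 for Cox6b2 at 1.23 and Ndufb4 at 65.2. ApoYap ctrl 3 was the low library for Sdha at 266, Cox6b1 at 395 and Atp5g3 at 1324. Lats1/2 flox ctrl 4 was low for Ndufa6 at 249.97 and Uqcrb at 173, and BL/6 ctrl 2 for Ndufs6b at 0.239. The causes were not tested.

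The response to doxycycline differed between ApoYap and BL/6 mice by a test of the difference (edgeR, adjusted p under 0.05) for 7 mitochondrial genes, all lower, and for 81 nuclear genes lower and 1 higher. Of all genes tested 27.4% were lower and 26.7% higher by that test. The difference in log2 fold change was −2.75 for mt-Nd2, −2.16 for mt-Co1, −2.08 for mt-Nd5, −1.94 for mt-Nd1, −1.80 for mt-Nd4, −1.64 for mt-Nd6 and −1.59 for mt-Cytb. For complex I it was −1.85 for Ndufv1, −1.74 for Ndufa6, −1.44 for Ndufb4, −1.20 for Ndufs6, −1.15 for Ndufs5, named after its values were seen, and −1.06 for Ndufa7. The pseudogene Ndufb4c had −2.80. The values were −1.77 for Sdha and −1.68 for Sdhb of complex II, and −1.74 for Uqcrh, −1.48 for Uqcrc2 and −1.06 for Uqcrb of complex III. Complex IV gave 3.20 for Cox6b2, the one higher gene, and −1.68 for Cox6c, −1.41 for Cox7b, −1.29 for Cox7a2, −1.27 for Cox4i1, −1.25 for Cox6a1, −1.25 for Cox6b1, −1.08 for Cox8a and −0.91 for Ndufa4. Cox6b2 was in the set only through ApoYap Dox and Lats1/2 KO, where it was high. Complex V gave −1.68 for Atp5g1, −1.48 for Atp5c1, −1.40 for Atp5g3, −1.32 for Atp5pb, −1.25 for Atp5d and −1.25 for Atp5e. Among assembly factors it was −1.99 for Ndufaf6, −1.70 for Ndufaf1 and −1.23 for Ndufaf4.

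The response to the virus differed between floxed and BL/6 mice, sampled at 1 week and 24 hours, for 2 mitochondrial genes lower, 8 nuclear genes lower and 2 higher. Of all genes tested 11.4% were lower and 13.0% higher, and the 8 of 93 are a share below that background. The values were −0.95 for mt-Co1, −0.58 for mt-Nd5, −0.58 for Ndufa7, −1.39 for the pseudogene Ndufb4c, −0.48 for Sdha, −0.60 for Uqcrh, −0.86 for Ndufaf4 and −0.99 for Ndufaf6. The 2 higher genes were Cox6b2 at 5.70, in the set only through ApoYap Dox and Lats1/2 KO, where it was high, and Cox7a1 at 1.40. Genotype and time cannot be told apart here.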

How the results depend on the processing

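Scaling by total counts alone changed most. Under Yap induction it gave 46 nuclear genes lower and 5 higher, where 12.6% of genes tested fell and 66.4% rose. In the knockout 0 mitochondrial genes were lower, and 3 nuclear genes were lower and 9 higher, with a nuclear median of 0.0440. There 4.41% of genes tested fell and 44.6% rose. Of the 86 nuclear genes with a negative knockout value under TMM, 48 turned positive, 28 of them among the 59 called lower. The named genes among these 28 turned to 0.12 for Atp5pb, 0.0799 for Atp5c1, 0.0600 for Cox7b, 0.0172 for Ndufv1, 0.0655 for Ndufb4, 0.10 for Uqcrc2, 0.0755 for Cox4i1, 0.12 for Cox6b1, 0.0040 for Cox7a2, 0.0282 for Atp5g3 and 0.10 for Ndufs6. It gave induction less doxycycline 38 nuclear genes lower and 3 higher, where 1420 of the 12970 genes tested were lower and 7488 higher. Knockout less virus had medians of 0.0795 (mitochondrial) and 0.21 (nuclear), with 2 mitochondrial and 10 nuclear genes higher and 1 and 2 lower. Of all genes tested 3487 were higher there and 451 lower. Knockout less induction had 32 nuclear genes higher and 1 lower, where 1174 of the genes tested were higher and 3653 lower. The filter of 10 CPM left 0 nuclear genes higher under induction, in the knockout, in both net comparisons and between floxed and BL/6 controls. In the knockout, the nuclear genes higher numbered 1 with no filter, with the compared groups only (33 lower) and with the replicate block. The replicate block otherwise left 1 nuclear gene lower between floxed and BL/6 controls and 54 in the knockout, where 112 and 2167 of the genes tested were lower. Correlations of same-numbered deviations ran from 0.052 to 0.16 under induction, from −0.24 to 0.022 in the knockout and from −0.24 to 0.21 over all comparisons examined. With 3 or 4 pairs each, these values cannot decide whether the replicate numbers pair the samples.

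For the virus alone the mitochondrial genes lower were 2 by DESeq2, 3 by limma voom, 1 with total counts and 2 with the compared groups, and the nuclear ones 1, 10 and 14 by DESeq2, limma voom and the compared groups. Of all genes tested 51, 212, 6 and 224 were lower by DESeq2, limma voom, total counts and the compared groups. Such counts here are of 12970 genes, but of 21426 with no filter and of 10494 to 11866 with the compared groups. For knockout less virus 1 mitochondrial gene was lower by DESeq2, limma voom, RLE factors, TMM without mitochondrial genes, no filter and the compared groups, and limma voom gave 27 nuclear genes lower. All genes lower there numbered 1283, 2029, 1149, 1342, 1116 and 1363 in the same order of settings. Between ApoYap and BL/6 controls 1 nuclear gene was higher by DESeq2, limma voom, total counts and the compared groups. All genes higher there numbered 41, 66, 30 and 70. Between floxed and BL/6 controls 1 mitochondrial gene was higher by limma voom and the compared groups, and 3, 3, 2 and 2 lower by DESeq2, limma voom, total counts and the compared groups. The nuclear genes higher there were 2 by limma voom and the compared groups, and those lower 5 by DESeq2, 11 by limma voom, 4 with RLE, 7 with total counts, 1 with no filter and 19 with the compared groups. Of all genes tested 817 and 507 were higher there by limma voom and the compared groups. All genes lower there numbered 249, 382, 149, 188, 89 and 316 in the order of the lower nuclear counts. Without mt-Nd2 and Atp5g3 the mitochondrial share under induction was 0.513 times and the ratio 0.655 times the control, and the floxed share 0.772 times that of BL/6.

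Leaving out 1 library gave 1 to 3 nuclear genes higher and 25 to 69 lower in the knockout, 0 to 1 nuclear genes lower for doxycycline alone, 0 to 1 mitochondrial genes lower for the virus, 1 to 2 mitochondrial and 6 to 23 nuclear genes lower for knockout less virus, and 0 to 2 nuclear genes lower between floxed and BL/6 controls. An alternative chosen after seeing the data, without BL/6 Dox 1 and 2, turned the nuclear median for doxycycline alone to −0.0942. Genes of few counts, such as Cox6b2 and Ndufs6b, are limited by depth. The causes of these shifts were not tested. The 8 mitochondrial genes were lower under induction in each setting except total counts alone, which gave 7.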

Other observations

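The makeup of the pool of mitochondrial mRNAs also differed between groups. The share of mt-Co1 was 2.51 ± 0.154% in BL/6 ctrl and 3.75 ± 0.336% in BL/6 AAV-Cre (SD, n = 4 and 3), without overlap, while the 8 genes together held 0.767 times the BL/6 ctrl share of counts. In BL/6 Dox it was 1.897, 2.03, 3.16 and 2.797%, and the 2 lower values are those of libraries 1 and 2, which also had the lower shares of mitochondrial ribosomal RNA. The share of mt-Nd2 was lower without overlap in ApoYap Dox and in Lats1/2 KO than in their controls, at 0.709 and 0.946 times the control share, and that of mt-Cytb higher without overlap in both, at 1.27 and 1.204 times. The cause of these differences was not tested.

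A few genes scattered far more within groups than the rest. The pooled SD within groups of the log2 of scaled CPM plus 0.1 had a median of 0.18 over the genes, and was 1.27 for Cox5a, a complex IV subunit next to the catalytic core, 1.11 for Ndufb6, an accessory subunit of complex I, 0.98 for Sdhd and 0.93 for mt-Nd3. Cox5a stood at 16.8, 0.238, 14.2 and 7.25 CPM in BL/6 Dox, and Ndufb6 at 20.4, 0.476, 17.5 and 15.8 CPM in the same libraries. The library lowest for Cox5a was also the lowest for Ndufb6 in 6 of the 7 groups and for mt-Nd3 in 5. It was also the lowest in 5 groups for Ndufa4, whose SD was only 0.28, so this sharing was not particular to the scattered genes. These genes were chosen after their values were seen, and the cause was not tested.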
